A study of Mus musculus with 6 samples.

Results

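The Sox proteins are the closest relatives of SRY, and 10 of them (Sox4, Sox5, Sox6, Sox7, Sox9, Sox11, Sox12, Sox13, Sox17 and Sox18) were examined in the hearts of mice that carried an activated human SRY transgene. The members were found by their gene symbol in the table of heart array intensities. Of the 10 members, 9 had a probe, with 17 probes in all among 25697 probes on the array, while Sox11 had no row under its symbol and was not analysed here. Among the 17 probes, 12 were above background on at least 1 array and 9 passed the filter for testing, out of 12970 tested probes. These 9 probes stood for 8 members and were above background on all 6 arrays, so none was tested on the strength of 1 group alone.

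Hearts of 3 male hSRY-ON mice and 3 male hSRY-OFF mice of the FVB strain (FVB/N in the study's methods) were compared at postnatal day 6 (P6). Per the study's methods, the mouse line carried a single copy of the Signalox-hSRY transgene at the H11 locus, in which the ubiquitous CAG promoter drove the red fluorescent protein DsRed2 while human SRY stayed silent. In hSRY-ON mice Cre recombinase, supplied by oocytes of Ddx4-Cre mothers, had removed DsRed2 in the fertilized egg, so that CAG drove FLAG-tagged human SRY together with EGFP throughout the body. The hSRY-ON mice used for arrays were chosen to lack the Ddx4-Cre transgene, and hSRY-OFF was defined as the unrecombined line. Elsewhere the study describes its controls as littermates that lacked Signalox-hSRY, with or without Ddx4-Cre. The labels do not give the transgene status or litter of each control. Whether the groups differed in mother or litter could not be checked. The comparison asked which genes differed in the heart when human SRY, normally a gonadal gene, was expressed there from the fertilized egg on. The study reports that hSRY-ON pups grew more slowly than littermates, lacked milk in the stomach and all died early after birth. Some of their hearts had apoptotic areas. In these arrays the poor growth and feeding of the pups cannot be told apart from SRY expression in the heart. Human SRY itself was not analysed here, and none of the 6 arrays gave a signal above background for mouse Sry, so the arrays do not check the labels.

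Every Sox protein binds DNA through an HMG box, a domain first recognised in SRY that fits into the minor groove around AACAAT-like motifs and bends the helix. The family is divided into groups by the sequence of that box. SOXF proteins (Sox7, Sox17, Sox18) act in endothelial cells, in arterial and lymphatic specification; SOXC proteins (Sox4, Sox11, Sox12) are activators in progenitor cells, and Sox4 is needed for the outflow tract of the heart. SOXD proteins (Sox5, Sox6, Sox13) lack an activation domain of their own and pair through a coiled coil, and the SOXE protein Sox9 is the gene that SRY switches on in the gonad, with further roles in cartilage and heart valves.

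In hSRY-ON hearts Sox7 and Sox17 were lower and Sox5 was higher, and the other 5 tested members did not pass the test. Of the 9 tested member probes, 3 were lower and 1 was higher at a Benjamini-Hochberg adjusted p below 0.05 in limma, with the adjustment made over all 12970 tested probes. Many genes differed in these hearts: 27.5% of all tested probes passed the same threshold, 13.8% higher and 13.7% lower in hSRY-ON. Counted by gene, with the brightest tested probe standing for each, 1 member of 8 was higher and 2 were lower, against 14.9% and 13.9% of all tested genes (28.8% in either direction). The values of the 2 groups did not overlap for 6 of the 9 tested member probes, compared with 45.2% of all tested probes. The median log2 fold change of the 8 members was -0.53 and that of all tested genes was 0.00, while the median size of the change was 0.56 and 0.30. Levels are log2 normalized intensities throughout, differences are hSRY-ON minus hSRY-OFF on that scale, and levels of different probes cannot be set against each other.

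**Figure D1:**
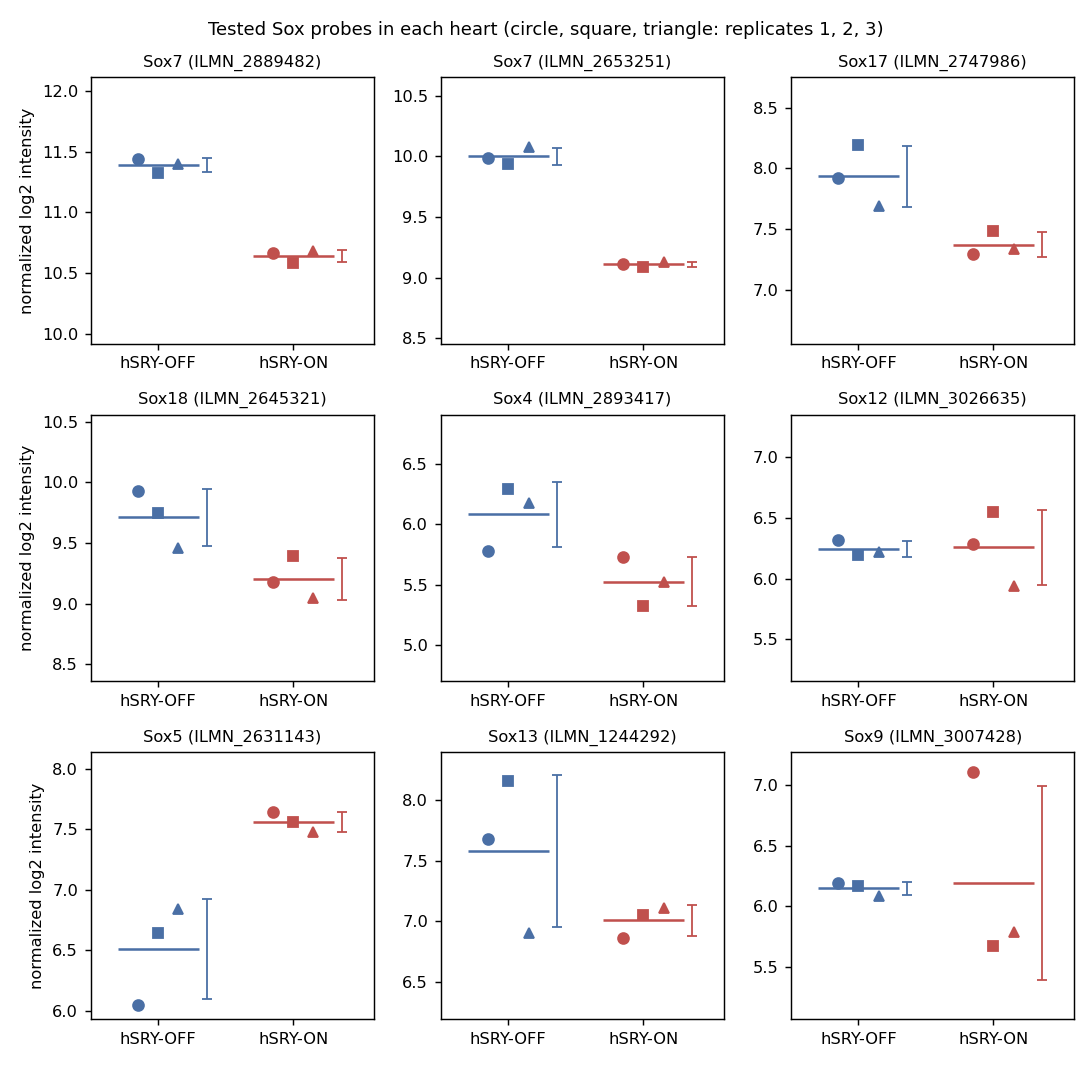
Normalized log2 intensity (vertical axis) of the 9 tested Sox probes in each of the 6 hearts, by group, with the mean (line) and the standard deviation (bar beside it); each panel spans its own range of levels. The groups stand apart for both Sox7 probes, Sox17, Sox18, Sox4 and Sox5, and overlap for Sox12, Sox13 and Sox9.

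Sox7, a SOXF factor of early endothelial and blood progenitors, was measured by 2 probes. Its brighter probe (ILMN_2889482) stood at 11.44, 11.33 and 11.40 in the hSRY-OFF hearts and at 10.66, 10.59 and 10.68 in the hSRY-ON hearts. The other probe (ILMN_2653251) stood at 9.98, 9.94 and 10.08 in hSRY-OFF and at 9.11, 9.09 and 9.13 in hSRY-ON. Each probe was lower in all 3 hSRY-ON hearts than in any hSRY-OFF heart, and the spread within a group was small beside the gap between the groups. The log2 fold change was -0.75 (SE 0.11, 95% interval -1.004 to -0.49, adjusted p = 0.0026) for ILMN_2889482. It was -0.89 (SE 0.11, 95% interval -1.15 to -0.64, adjusted p = 0.0013) for ILMN_2653251, so that Sox7 was 1.68-fold and 1.86-fold lower by the 2 probes. Both probes passed the test under all 11 other settings and with any 1 heart left out.

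Sox17, a SOXF factor of arterial endothelium that also acts in the endoderm, fell as well. Its probe ILMN_2747986 stood at 7.92, 8.19 and 7.69 in hSRY-OFF and at 7.30, 7.49 and 7.33 in hSRY-ON hearts, so that the lowest control lay above the highest hSRY-ON heart. The log2 fold change was -0.56 (SE 0.16, 95% interval -0.92 to -0.20, adjusted p = 0.033). This call depended on single hearts: the adjusted p rose to 0.090 without hSRY-OFF replicate 1, 0.090 without hSRY-OFF replicate 2, 0.099 without hSRY-ON replicate 1 and 0.077 without hSRY-ON replicate 3, with changes between -0.43 and -0.57. With no background correction the change was -0.34 and still passed (adjusted p = 0.028). A second Sox17 probe, ILMN_2784446, was above background only in hSRY-OFF replicate 2 and was not tested.

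Sox18, which in mice opens lymphatic development through Prox1, had levels of 9.93, 9.75 and 9.46 in hSRY-OFF and 9.17, 9.39 and 9.05 in hSRY-ON hearts at its single probe. The groups did not overlap, although the closest hearts of the 2 groups were only 0.07 apart. The difference was -0.51 (SE 0.16, 95% interval -0.88 to -0.13) and did not pass the threshold, with an adjusted p of 0.052. It passed in 6 of 11 other settings, where the adjusted p lay between 0.0093 and 0.045, and it also passed without hSRY-OFF replicate 3 (log2 fold change -0.63, adjusted p = 0.025).

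**Figure D2:**
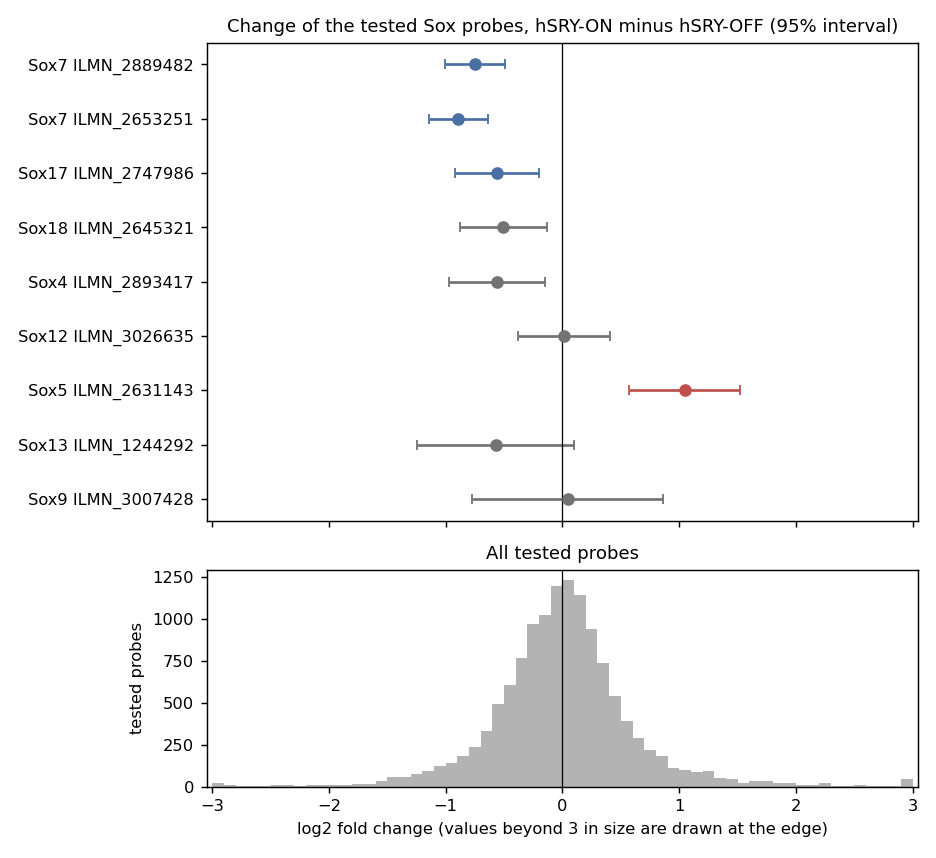
Log2 fold change of the 9 tested Sox probes with its 95% interval (top; blue lower, red higher, grey not past the threshold) over a histogram of the log2 fold changes of all 12970 tested probes (bottom; vertical axis, number of probes). The 4 SOXF probes lie between -0.89 and -0.51, and Sox5 at 1.05 is the only Sox probe that passed on the right, where Sox9 (0.04) and Sox12 (0.01) lie next to 0.

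SOXF factors are made by endothelial cells, and in RNA from a whole heart fewer cells of a type and less RNA in each cell cannot be told apart. The endothelial marker list held 12 genes, of which 11 were tested, 3 rose, 3 fell and 5 did not pass the test, with a median log2 fold change of -0.20. Plvap, a protein of endothelial fenestrae, rose most (log2 fold change 1.66, SE 0.20, adjusted p = 0.0012), and Icam2, an endothelial adhesion molecule, fell most (-0.54, SE 0.12, adjusted p = 0.013). Pecam1 (CD31), the general endothelial adhesion molecule, differed by 0.01 (SE 0.14, adjusted p = 0.97), a value whose sign changed with the setting. On the linear scale of background-corrected intensity, the hSRY-OFF hearts summed to between 30465 and 31576 over the list and the hSRY-ON hearts to between 29427 and 34067, and only Erg of its 12 genes was not above background on enough arrays to be tested. The summed levels of the 2 groups overlapped. The part of endothelial cell number in the SOXF values was not tested.

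As a description, each SOXF probe was also set against the mean log2 level of the 11 tested endothelial markers in the same heart. Relative to the hSRY-OFF mean, the brighter Sox7 probe then stood at -0.73, -1.04 and -0.71 in the 3 hSRY-ON hearts, and Sox17 at -0.64, -0.68 and -0.60. Sox18 stood at -0.54, -0.55 and -0.66 on the same measure. The 3 hSRY-ON hearts lay below every hSRY-OFF heart for each of these genes, and the mean of the markers itself moved by 0.08. That mean leaned on Plvap: over the other 10 markers it moved by -0.08, and the mean relative change became -0.67 in place of -0.82 for the brighter Sox7 probe, -0.48 in place of -0.64 for Sox17 and -0.43 in place of -0.58 for Sox18, with the hSRY-ON hearts still below every hSRY-OFF heart. No test was made of these differences. The marker mean left out the endothelial genes Cldn5, Robo4 and Cdh5, which were listed with the genes tied to SOXF factors. These 3 fell, by log2 fold changes of -1.48, -0.81 and -0.72. Of the other tested genes of that list, 2 rose and 6 did not pass. A reference that holds them was not made.

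Genes tied to SOXF factors in blood and lymphatic vessels made up a list of 14, of which 11 were tested: 3 fell, 2 rose and 6 did not pass, with a median log2 fold change of -0.36 against 0.00 for all tested genes. Cldn5, the tight junction claudin of endothelium and a proposed direct SOX18 target, fell most. It stood at 11.63, 12.07 and 12.22 in hSRY-OFF and at 10.20, 10.79 and 10.49 in hSRY-ON hearts, a log2 fold change of -1.48 (SE 0.21, adjusted p = 0.0021). The closest hearts of the 2 groups were 0.85 apart. Robo4, an endothelial guidance receptor, fell by 0.81 (SE 0.11, adjusted p = 0.0023), and Cdh5, which encodes VE-cadherin, fell by 0.72 (SE 0.15, adjusted p = 0.011). For Robo4 the hSRY-OFF hearts stood at 11.79 to 11.95 and the hSRY-ON hearts at 11.02 to 11.14, and for Cdh5 these ranges were 9.94 to 10.35 and 9.40 to 9.59, so that neither gene overlapped between the groups.

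The 2 genes of this list that rose were Prox1 and Vcam1. Prox1, the homeobox factor of lymphatic endothelium that is also expressed in heart muscle, stood at 9.66, 9.69 and 9.79 in hSRY-OFF and at 10.47, 10.74 and 10.65 in hSRY-ON hearts (log2 fold change 0.91, SE 0.12, adjusted p = 0.0019). Prox1 was thus higher where Sox18, its activator in lymphatic endothelium, had the lower values. Vcam1, an adhesion molecule of activated endothelium, rose by 0.58 (SE 0.18, adjusted p = 0.045) and lost its call when any 1 heart but hSRY-ON replicate 2 was left out. The Notch pathway genes of the list did not pass: Dll4 differed by -0.63 (SE 0.23, adjusted p = 0.081), Notch1 by -0.51 (SE 0.24, adjusted p = 0.16), Notch4 by -0.31 (SE 0.14, adjusted p = 0.14) and Hey1 by -0.36 (SE 0.16, adjusted p = 0.14). Efnb2, Kdr and Mmp7 were not above background on enough arrays to be tested. Of the other 4 lymphatic markers, Pdpn rose (0.62, SE 0.14, adjusted p = 0.018), Ccl21a fell (-1.28, SE 0.35, adjusted p = 0.033), and Lyve1 and Flt4 did not pass.

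**Figure D3:**
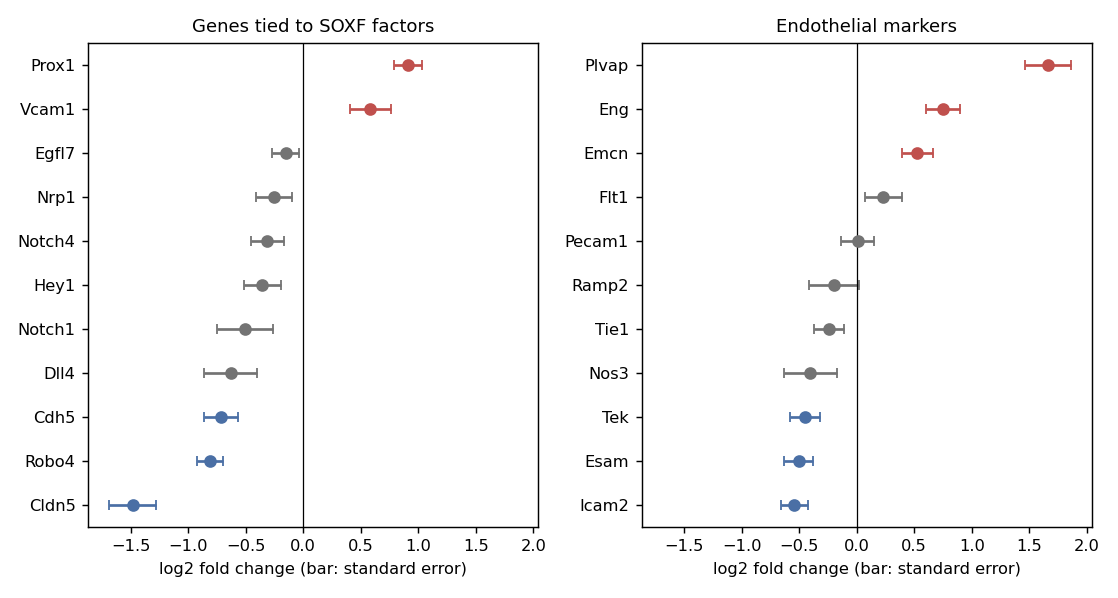
Log2 fold change, hSRY-ON minus hSRY-OFF, with its standard error for the 11 tested genes tied to SOXF factors (left) and the 11 tested endothelial markers (right); red points rose, blue points fell and grey points did not pass the test. Cldn5 at -1.48 is the lowest on the left and Plvap at 1.66 the highest on the right.

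Among SOXC members, Sox4 was near the threshold and Sox12 was not. Sox4 stood at 5.78, 6.29 and 6.18 in hSRY-OFF and at 5.73, 5.32 and 5.52 in hSRY-ON hearts. The groups did not overlap, but the lowest hSRY-OFF heart lay only 0.05 above the highest hSRY-ON heart. The log2 fold change was -0.56 (SE 0.18, 95% interval -0.97 to -0.15), with an adjusted p of 0.050 (0.0500384) that was not below the threshold. It fell below it when only probes detected on all 6 arrays were tested (0.040), with a detection limit of 0.01 (0.044) and without hSRY-OFF replicate 1 (0.034), where the change was -0.70. It stayed above in the other 9 settings, with changes down to -0.37 with array quality weights (adjusted p = 0.13) and -0.17 with no background correction (0.15), and when any other heart was left out (0.058 to 0.15). At the limit of 0.01 Sox4 counted as detected in the 3 hSRY-OFF hearts and in no hSRY-ON heart (detection p 0.013, 0.046 and 0.019). It thus entered that test only through the group where it was higher. Under both probe filters the change itself stayed at -0.56. In hSRY-ON replicate 2 its 5.32 lay next to the lowest detected level of that array, 5.31.

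Sox12, the least studied SOXC factor, stood at 6.32, 6.20 and 6.22 in hSRY-OFF and at 6.29, 6.55 and 5.94 in hSRY-ON hearts. The hSRY-ON hearts lay on both sides of the controls. The difference was 0.01 (SE 0.17, adjusted p = 0.96), and its 95% interval of -0.38 to 0.40 bounds a change in either direction; the sign changed with the setting. A second Sox12 probe, ILMN_3099470, was above background in 1 heart of each group and was not tested. Of 3 genes tied to SOXC factors, the neuronal tubulin Tubb3 and Tead2, a transcription factor of the Hippo pathway, were tested and neither passed the test; Tead2 differed by -0.25 (SE 0.14, adjusted p = 0.22).

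Of the SOXD members, Sox5 was the only one that passed the test. The promoters of Sox5 and Sox13, the tested SOXD members, are shown. SRY and Sox proteins share a binding motif that can be searched in them. The values of Sox13 overlapped between the groups and did not pass the test. The windows are the 250 bases before the RefSeq start site in GRCm38.p6, written 5′ to 3′ on the strand of the gene, Sox5 at chr6:143947107-143947356 and Sox13 at chr1:133424213-133424462, both on the minus strand, with ACAAT in capitals.
Sox5: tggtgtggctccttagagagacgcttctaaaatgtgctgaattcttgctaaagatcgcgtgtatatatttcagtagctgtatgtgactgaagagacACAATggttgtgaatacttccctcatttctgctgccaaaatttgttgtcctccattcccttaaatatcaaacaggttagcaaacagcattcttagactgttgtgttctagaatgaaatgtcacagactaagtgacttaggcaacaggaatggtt
Sox13: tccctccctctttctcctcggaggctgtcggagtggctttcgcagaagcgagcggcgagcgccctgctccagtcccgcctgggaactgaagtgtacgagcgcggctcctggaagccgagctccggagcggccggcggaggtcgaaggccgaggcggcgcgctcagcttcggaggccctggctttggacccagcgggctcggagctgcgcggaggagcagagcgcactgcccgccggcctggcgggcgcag
ACAAT, the core of the SRY and Sox motif, was searched on both strands and occurs once in the Sox5 window, starting 154 bases before the start site, and not in the Sox13 window. The same letters are held by 27.7% of 32851 RefSeq promoters of this length, and the longer AACAAT, which contains it, by 9.42%. Promoter entries were matched for 6 of the 10 members. The Sox4, Sox11 and Sox12 windows held no ACAAT, and of 6 Sox6 windows 3 held it and 1 of these also held AACAAT. A match or its absence in these windows describes letters and not binding.

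Sox5, a SOXD factor of cartilage, neurons and heart, had levels of 6.05, 6.64 and 6.84 in hSRY-OFF and of 7.64, 7.56 and 7.48 in hSRY-ON hearts at probe ILMN_2631143. All 3 hSRY-ON hearts lay above all 3 hSRY-OFF hearts, and the hSRY-OFF hearts spread more widely. The log2 fold change was 1.05 (SE 0.20, 95% interval 0.57 to 1.52, adjusted p = 0.0086), a 2.06-fold increase and the only change of 2-fold or more among the tested member probes. Sox5 passed the test under all 11 other settings, with log2 fold changes from 0.51 to 1.30, and with any 1 heart left out, with changes from 0.81 to 1.22. The other 3 Sox5 probes (ILMN_1244213, ILMN_2610223 and ILMN_1213910) were above background on no array and were not tested. The increase therefore rests on 1 probe of 4. The array table does not place the probes on transcripts, and which Sox5 transcripts each of them reads was not analysed here.

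Sox13, a SOXD factor known from T cells and as an islet autoantigen, stood at 7.68, 8.15 and 6.91 in hSRY-OFF and at 6.86, 7.05 and 7.11 in hSRY-ON hearts. The hSRY-OFF hearts spread over 1.25 and the third lay among the hSRY-ON hearts. The difference of -0.57 (SE 0.29, 95% interval -1.24 to 0.10, adjusted p = 0.18) did not pass; without hSRY-OFF replicate 3 it was -0.91 (adjusted p = 0.014), and without hSRY-OFF replicate 2 it was -0.28 (adjusted p = 0.45).

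Sox6, the SOXD factor that represses slow fiber genes in skeletal muscle and embryonic globin genes in red cells, had 3 probes and none could be tested. ILMN_2702323 was above background in hSRY-OFF replicate 2 only, and ILMN_2702322 and ILMN_1254646 were above it on no array, so no change of Sox6 could be given. The 8 genes that Sox6 is known to repress, or that belong to the slow or embryonic programs it restrains, included 6 tested genes, of which 2 rose, none fell and 4 did not pass, with a median of -0.03. Tnnt1, slow skeletal troponin T, stood at 11.31, 11.34 and 11.36 in hSRY-OFF and at 14.80, 14.85 and 14.88 in hSRY-ON hearts (log2 fold change 3.51, SE 0.11, adjusted p = 1.2e-05). Myh7, the beta-myosin heavy chain of slow fibers and fetal ventricle, stood at 10.46, 10.02 and 10.08 in hSRY-OFF and at 12.86, 13.39 and 13.14 in hSRY-ON hearts (2.94, SE 0.18, adjusted p = 8.2e-05). These increases were far larger than the spread between hearts. Tnni1, slow skeletal troponin I and the fetal cardiac isoform, differed by -0.05 (SE 0.21, adjusted p = 0.89), and the embryonic globins Hbb-y and Hbb-bh1 were not above background on enough arrays to be tested. Tnnc1, Myl2 and Myl3 did not pass, but they ranked among the 13 brightest probes on every array, at the top of the measured range, so a change in them may not have been seen.

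Sox9, the SOXE factor of testis, cartilage and valve mesenchyme, did not pass the test, and 1 heart stood apart. It was at 6.19, 6.17 and 6.09 in hSRY-OFF and at 7.11, 5.68 and 5.79 in hSRY-ON hearts. Replicate 1 of hSRY-ON lay 0.92 above the next heart, and the other 2 hSRY-ON hearts lay below every control. That gap ranked 33rd of 12970 tested probes by how far that heart exceeded all others. By a margin over 0.8, replicate 1 of hSRY-ON exceeded all other hearts at 48 tested probes. Replicate 2 of hSRY-ON did so at 65, and each remaining heart at 2 to 19. The Sox9 difference was 0.04 (SE 0.35, 95% interval -0.77 to 0.86, adjusted p = 0.94), and it was -0.42 (SE 0.14, adjusted p = 0.080) without hSRY-ON replicate 1.

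The same heart was high for some cartilage genes and 1 airway gene, and those described next were chosen after their values were seen. Of the 7 tested genes of the cartilage matrix list, 3 were highest in that heart and 2 were lowest, Col9a1 (5.12 against 5.61 to 6.18 in the other hearts) and Col11a2 (5.19 against 5.80 to 6.22). Col2a1, the collagen of cartilage and a direct Sox9 target, stood at 7.27 in hSRY-ON replicate 1 and at 4.83 to 5.16 in the other 5 hearts at probe ILMN_2759144, and a second probe gave 7.26 against 4.62 to 5.09. Chad, a cartilage leucine-rich protein, stood at 5.41, 5.68 and 5.93 in hSRY-OFF and at 7.91, 5.57 and 6.91 in hSRY-ON hearts, and Comp, a cartilage matrix protein, at 5.73, 5.53 and 6.09 and at 6.96, 5.93 and 6.22. Scgb1a1, the secretory product of airway club cells, stood at 13.74 in hSRY-ON replicate 1 and at 4.53 to 6.52 in the other hearts. The 5 airway markers summed to 157 to 226 over the hSRY-OFF hearts, against 169 to 13869 over the hSRY-ON hearts, the highest sum being nearly all Scgb1a1, and Sftpc, Sftpa1 and Scgb1a1 itself were above background on too few arrays to be tested. The part of tissue other than heart muscle in the Sox9 value of that heart was not tested.

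The cartilage matrix list, whose genes are controlled by Sox9 with Sox5 and Sox6 in chondrocytes, held 14 genes, of which 7 were tested, 2 rose, none fell and 5 did not pass, with a median log2 fold change of 0.45. Its genes summed to 977 to 1160 over the hSRY-OFF hearts, against 1273 to 1877 over the hSRY-ON hearts. Col9a2, a collagen IX chain, rose by 0.92 (SE 0.22, adjusted p = 0.019), with levels of 7.89, 7.71 and 7.93 in hSRY-OFF and 9.27, 8.58 and 8.44 in hSRY-ON hearts. All 3 hSRY-ON hearts were thus above the controls for Col9a2, which passed without hSRY-ON replicate 1 but not without hSRY-OFF replicate 1 (adjusted p = 0.051) or hSRY-OFF replicate 2 (0.061). Fmod, the proteoglycan fibromodulin, rose by 0.45 (SE 0.13, adjusted p = 0.036) and lost its call whichever heart was left out, with adjusted p between 0.052 and 0.10. Chad (1.12, SE 0.51, adjusted p = 0.14) and Comp (0.59, SE 0.27, adjusted p = 0.15) did not pass.

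**Figure D4:**
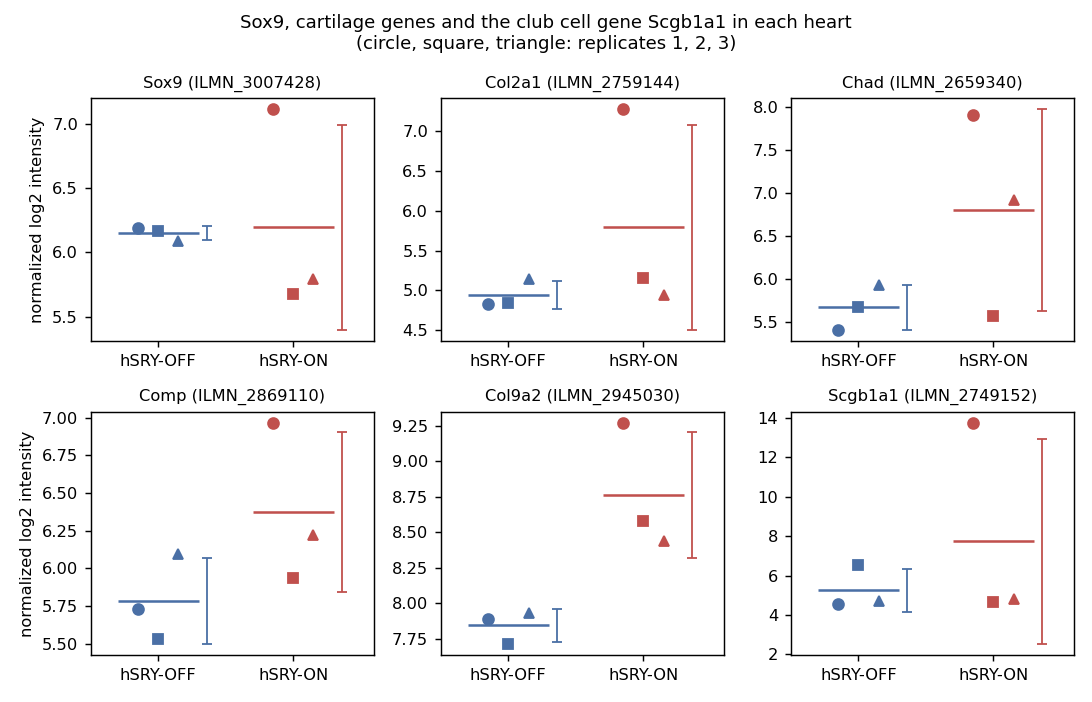
Normalized log2 intensity (vertical axis) of Sox9, the cartilage genes Col2a1, Chad, Comp and Col9a2 and the club cell gene Scgb1a1 in each heart, with group means (lines) and standard deviations (bars); each panel spans its own range. The genes beside Sox9 were drawn because they are high in replicate 1 of hSRY-ON (red circle), at 7.11 for Sox9 and 13.74 for Scgb1a1; Col9a1 and Col11a2, not drawn, are lowest in that heart.

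The rest of the family was mostly below background. Of 10 further genes (Sry and 9 other Sox genes), 8 had a probe and 1 was tested, the SOXE gene Sox8, at 5.44, 5.99 and 6.08 in hSRY-OFF and 5.27, 6.04 and 5.46 in hSRY-ON hearts. The groups overlapped, and the difference was -0.25 (SE 0.25, adjusted p = 0.49). Probes for Sry, Sox1, Sox2, Sox3, Sox15, Sox21 and Sox30 were above background on no array, and Sox10 and Sox14 were not analysed here.

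Of 20 genes of other HMG box proteins, 12 were tested, 2 rose, 1 fell and 9 did not pass, with a median of -0.04. Hbp1, a repressor of cell cycle genes, rose by 0.56 (SE 0.17, adjusted p = 0.042), with control hearts at 12.16 to 12.48 and hSRY-ON hearts at 12.66 to 13.18, and lost its call in 5 of 11 other settings and when any 1 heart but hSRY-ON replicate 3 was left out. Bbx, an HMG box protein with a sequence-specific box, rose by 0.56 (SE 0.13, adjusted p = 0.016), with control hearts at 6.54 to 6.73 and hSRY-ON hearts at 7.12 to 7.39, and lost its call without hSRY-OFF replicate 1 (adjusted p = 0.070). Tfam, which packages mitochondrial DNA, fell by 0.73 (SE 0.16, adjusted p = 0.013), with control hearts at 9.31 to 9.86 and hSRY-ON hearts at 8.87 to 8.89. Cofactors known to bind SRY or Sox proteins made a list of 18, of which 9 were tested: none rose, Parp1, a DNA repair enzyme reported to bind SRY, fell by 0.41 (SE 0.11, adjusted p = 0.028), and 8 did not pass, with a median of -0.16. The Parp1 call was lost when any 1 heart but hSRY-ON replicate 3 was left out. Among those 8, Ctnnb1 (beta-catenin) differed by 0.13 (SE 0.16, adjusted p = 0.60) and Trim28 (KAP1, a co-repressor partner of SRY) by 0.13 (SE 0.12, adjusted p = 0.42).

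For each member that passed, the genes of most similar profile over the 6 hearts are given as a description, since the correlation is carried mainly by the difference between 2 groups. Nearest to Sox7 were Stard7 (Pearson r = 0.999), Decr1 (0.999) and Lrpprc (0.998), all lower in hSRY-ON, and 584 of 9659 other genes reached 0.95. Nearest to Sox17 were Bcl2l13 (0.993), Tec (0.991) and Pycard (0.991), with 135 genes at 0.95 or more, and nearest to Sox5 were Cacna2d1 (0.994), Mllt3 (0.993) and Ptk7 (0.993), with 189. Many genes thus shared each profile.

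Markers of some other cell types also differed between the groups, and the part of these cell types in the Sox values was not tested. Of 10 cardiomyocyte markers 9 were tested, none rose and 5 fell. Their sums were 168345 to 182645 over the hSRY-OFF hearts, against 154002 to 164591 over the hSRY-ON hearts. The defining gene Tnnt2 was not analysed here. Pln fell most (-1.47, SE 0.29, adjusted p = 0.0091). Myh6 fell by 0.51 (SE 0.12, adjusted p = 0.019) at its brightest probe, which stood at 14.40 to 15.11. Its other probe (ILMN_2640008) stood at 11.76, 11.67 and 10.97 in hSRY-OFF and at 9.62, 9.12 and 9.75 in hSRY-ON hearts. All 8 macrophage markers were tested, 5 rose and none fell (2931 to 3458 against 6126 to 6457). Among mural cell markers 9 of 10 were tested, 2 rose and 2 fell, with a median log2 fold change of -0.42. Tagln rose most (1.81, SE 0.34, adjusted p = 0.0077) and Abcc9 fell most (-0.74, SE 0.18, adjusted p = 0.020). The mural sums were higher in hSRY-ON (31298 to 37189 against 43680 to 46588). These sums were mostly Acta2, which rose by 0.53 (SE 0.12, adjusted p = 0.016) at its brightest probe, near the top of the measured range. Its other probes were also higher in every hSRY-ON heart. Of these, ILMN_2710353 stood at 12.52, 12.58 and 12.28 in hSRY-OFF and at 13.94, 13.57 and 13.64 in hSRY-ON hearts. Among fibroblast markers 7 of 8 were tested and 1 rose, and the sums of the groups overlapped (32595 to 35988 against 29906 to 33534). Erythroid markers overlapped between the groups in summed level, with 1 of 6 lower. That sum was mostly Hba-a1, which stood at 15.39 to 15.49, the top of the measured range. Of the 6 glial markers none of 2 tested passed. Liver markers were higher in sum (312 to 364 against 1293 to 3079), with both tested genes of 5 up. Alb, Apoa1 and Serpina1a were above background on too few arrays to be tested. Of the 2 tested, Ahsg was above background in every heart. Ttr was above it in the 3 hSRY-ON hearts alone, so it entered the test only through the group where it was high. The same held for Actn3, the 1 of 3 tested skeletal muscle markers that rose, while 1 fell. Among adipocyte markers 1 of 2 tested rose, and 1 of 3 tested thymus markers fell.

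**Figure D5:**
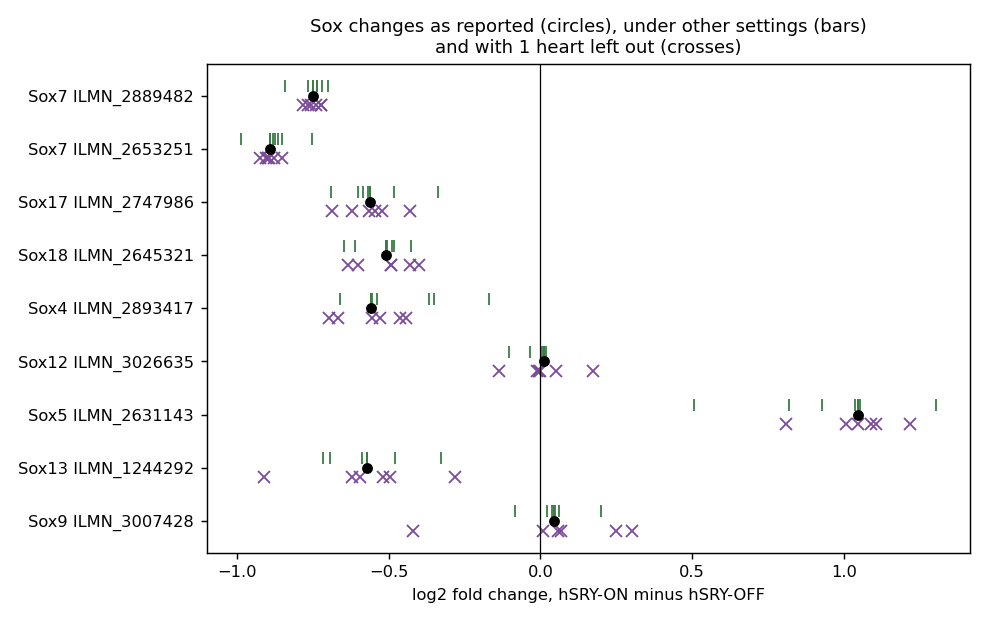
Log2 fold change of the 9 tested Sox probes as reported (circles), under 11 other processing settings (green bars) and with each of the 6 hearts left out in turn (purple crosses). The Sox7 values stay between -0.99 and -0.70 and those of Sox5 between 0.51 and 1.30, while Sox9 and Sox12 lie on both sides of 0.

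All values rested on 3 arrays a group. Between 47.2% and 51.3% of probes were above background on an array, same-group arrays correlated at 0.983 to 0.992 and arrays of different groups at 0.940 to 0.960. With 3 hearts against 3, an exact permutation test of a single gene could not give a two-sided p below 0.10, so the tests above borrow the spread across all probes.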

How the data were processed

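Total RNA of hearts from 3 hSRY-ON and 3 hSRY-OFF mice was labelled as biotinylated cRNA and hybridized by the authors to MouseRef-8 v2.0 expression BeadChips (Illumina), which average many beads for each probe. The deposited intensity is the mean bead signal per probe and array on a linear scale, neither background-subtracted nor normalized, and the deposited detection p-value comes from a comparison with negative-control beads on that array. The study's methods name TCC for its own normalization, with settings not given in the sources used here.

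Groups and replicate numbers came from the sample titles, every column of values was matched to a sample, and no 2 arrays were identical. With limma 3.58.1 in R 4.3.3, neqc was run with an offset of 16: it removes background modelled from the detection p-values, quantile normalizes and returns log2 values. Testing required a detection p below 0.05 on 3 or more of 6 arrays. The model (lmFit, eBayes) held the group alone, and two-sided p-values were adjusted by Benjamini-Hochberg over all 12970 tested probes; standard errors are those of eBayes. The brightest tested probe stood for a gene in lists. Of 188 symbols in the lists, 3 were found by a synonym and 11 had no row. Promoters were searched with Python 3.11.15, which also drew the plots (matplotlib 3.10.9).

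The steps were tested on simulated arrays of hSRY-ON against hSRY-OFF with 17324 tested probes: 105 of 108 probes changed by 1 on the log2 scale (97.2%) and 92 of 92 changed by 2 passed with the planted sign, and 8 probes left unchanged also passed. Changes were planted only in probes with clear signal over background, and in a far smaller share of probes than the 27.5% called here. None was smaller than 1, as every tested Sox change but that of Sox5 was. These shares therefore do not give the power for the members.

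The members and lists were chosen with earlier results of these data known. Named were every member probe, the other Sox genes, and the 3 genes most correlated with each called member. For other HMG box proteins, cofactors, genes tied to Sox factors, and endothelial and lymphatic markers, the called extremes of each list were named. These are the called gene that rose most and the one that fell most, with those the members' roles call for. In the other marker lists the named genes were not always those that changed most. Arrays have no read depth, and the signal over background and the 3 arrays a group limit the precision. Other background corrections, normalizations, probe filters, variance models, array weights, the replicate number as a block, and each heart left out were tried as alternatives. Promoter sequences were taken from RefSeq (GRCm38.p6). Brain, lung and liver arrays were not analysed here, and 1 item of a marker list is not reported here.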

Additional observations from a re-analysis of the deposited data

Results flagged for a closer look

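Probes outside the tests, above background on fewer than 3 arrays, stood over 1 log2 unit above every hSRY-OFF heart in 1 hSRY-ON heart. In hSRY-ON replicate 1, the club cell gene Scgb1a1 stood at 13.74 against at most 6.52 in the controls, where it was above background in 1 heart, and the 2 Col2a1 probes at 7.26 (ILMN_2759142) and 7.27 (ILMN_2759144) against at most 5.03 and 5.14. In hSRY-ON replicate 3, the liver apolipoprotein gene Apoa1 stood at 7.23 against at most 5.05, and it was above background in 2 hSRY-ON hearts. Replicate 1 is also the heart in which Sox9 stood apart; no Sox probe was highest by such a margin in replicate 3. Groups of 3 hearts are too small for an outlier test.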

How the results depend on the processing

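Both Sox7 probes and Sox5 kept direction and call in all 11 other settings and in all 6 fits with a heart left out. The number of member probes past the threshold was 4 as reported and 3 to 6 under the alternatives. Sox17 lost its call without normalization between arrays (adjusted p = 0.12), and Sox13 passed with array quality weights (-0.72, adjusted p = 0.036). Sox9 changed sign without normalization between arrays (-0.084) and over the fits with a heart left out ranged from -0.42 to 0.30. Sox12 changed sign without normalization between arrays (-0.10) and with array quality weights (-0.035), and ranged from -0.14 to 0.17 with a heart left out. Pecam1 changed sign without normalization between arrays (-0.090) and ranged from -0.080 to 0.10 with a heart left out. None of these 3 passed the test in any setting, and the cause of the changes was not tested.

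Over all probes, 3567 were called as reported, 1788 of them higher. Without normalization between arrays there were 1897, 731 of them higher (38.5% against 50.1%), with a median log2 change over all probes of -0.12, and 27 in place of 43 genes of the lists were called; Hbp1, Bbx, Parp1, Vcam1, Col9a2, Fmod and Icam2 lost their calls there. With a heart left out there were 2206 to 3669 probes, 1081 to 1821 of them higher, and 24 to 42 list genes, with fewer samples in each fit. Replicate numbers are shared by the 2 groups, but same-numbered hearts did not deviate together (correlations -0.02, 0.04 and -0.07). The labels do not say whether hearts of the same number shared a litter or a chip, and these correlations cannot settle it. With the replicate number as a block, 2842 probes and 4 member probes were called. Signal over background limits Sox6, Sox8 and the second Sox12 and Sox17 probes, which lay at or below the limit of detection in some or all hearts. It also limits Sox4, which was close to that limit in hSRY-ON replicate 2 (detection p 0.046).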
